A study of Mus musculus with 96 samples.

Results

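Tubulins are the building blocks of microtubules. The 10 genes described here are 4 genes for alpha-tubulin (Tuba1a, Tuba1b, Tuba1c and Tuba4a), 5 for beta-tubulin (Tubb2a, Tubb2b, Tubb4b, Tubb5 and Tubb6) and Tubg1 for gamma-tubulin, taken by name from the 36935 gene symbols of the deposited count table. All 10 were in the table, and all 10 passed the filter on low values in each comparison that used all libraries of a class or label. The RNA came from single mouse cells: metaphase II oocytes, which are arrested with a spindle, and blastomeres separated from 2-cell embryos made by in vitro fertilisation. Each class of cells is described by the level of a gene in its libraries, in counts per 1000000 counts of the library (CPM).

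The mouse line carries a variant, P620A, in Padi6, a maternal gene of the oocyte cytoplasm. The labels give 22 libraries to oocytes of genotype Padi6P620A/P620A, 22 to 2-cell blastomeres of genotype Padi6MatP620A/+ (the variant inherited from the mother), 22 to oocytes and 22 to 2-cell blastomeres of genotype Padi6+/+, and 8 to negative controls. Both variant groups are called mutant and the Padi6+/+ groups wild type. Per the labels' protocols, females were 4 to 8 weeks old and received gonadotropins, males were 8 to 12 weeks old, cumulus cells were removed with hyaluronidase, and polar bodies were discarded. The labels name no animal for any library.

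The libraries were grouped by RNA content, because the stage labels go against the genes that mark the stage. Of 96 libraries, 79 held at least 100000 counts and at least 4000 detected genes. A library was called 2-cell-like with Mos below 100 CPM and a count of Zfp352, and oocyte-like with Mos at 100 CPM or more. Mos keeps the oocyte in metaphase arrest, and Zfp352 is transcribed at the 2-cell stage. The 39 2-cell-like libraries carry the labels mutant oocyte (19), mutant 2-cell (11), wild-type oocyte (7) and negative control (2). The 39 oocyte-like libraries carry the labels mutant 2-cell (9), wild-type 2-cell (14), wild-type oocyte (12) and negative control (4). By genotype label, 30 2-cell-like libraries are mutant and 7 wild type, against 9 and 26 oocyte-like ones. Differences between the classes therefore cannot be fully told apart from the genotype label. Library 86, labelled mutant 2-cell, had neither Mos nor Zfp352 and belongs to neither class. The library nearest to the limit on the 2-cell-like side had 63.3 CPM of Mos, and the nearest on the oocyte-like side had 200.6 CPM. The 2-cell-like libraries held 503644 to 3185910 counts (median 1608300), and the oocyte-like ones 162539 to 5762560 (median 3235840).

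Libraries of 1 cell with no animal named are not replicates of an animal, so each class counts as 1 sample and no test was run. Intervals are 95% intervals from counting error alone, and since the PCR reads carry no molecular identifiers they are narrower than the true error. The range over libraries is therefore given for the 10 members in the comparison of the classes, and for the members the other comparisons turn on. CPM is a share of a library's counts, so a higher level in each cell and fewer counts from other genes cannot be told apart.

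A marker sum for cumulus and granulosa, immune and blood, oviduct epithelium and stroma cells (called somatic markers, 50 genes) was also higher in most oocyte-like libraries. It ranged from 68.2 to 541 CPM in 2-cell-like libraries and from 182.0 to 39838 CPM in oocyte-like ones, of which 8 of 39 lay within the 2-cell-like range. It reached 1000 CPM in 0 of 39 2-cell-like and in 26 of 39 oocyte-like libraries. Of 20 cumulus and granulosa markers, 18 had a median of 0 in 2-cell-like libraries and 4 in oocyte-like ones. Hsd17b1, Ptx3, Foxl2, Thbs1, Tyrobp, C1qc, Col3a1 and Dcn had no count in any 2-cell-like library. Of the 50 markers, 7 had a higher pooled level in 2-cell-like libraries, among them Epcam at 53.1 against 15.3 CPM, Laptm5 at 17.7 against 3.93 CPM, Cd74 at 11.4 against 2.63 CPM and Hba-a1 at 6.21 against 0.188 CPM. The ratio of each member between the classes is therefore also given against the 13 oocyte-like libraries below 1000 CPM.

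Microtubules grow from dimers of 1 alpha- and 1 beta-tubulin, and gamma-tubulin sits in ring complexes that start new microtubules. In the mouse oocyte the spindle is built without centrioles, and the first cleavages run on tubulin protein and RNA stored in the egg together with RNA that the embryo begins to make. Cells also adjust tubulin RNA to the amount of free tubulin: TTC5 recognises the first residues of alpha- and beta-tubulin as they leave the ribosome and directs their mRNA to decay.

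Because that recognition reads the start of the protein, the first 30 coding bases of members are shown, from GENCODE transcripts of the GRCm38 build, with the first 12 bases in capitals:
Tuba1c: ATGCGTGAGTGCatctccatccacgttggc
Tuba4a: ATGCGCGAGTGCatttcagtccatgtgggg
Tubb2a: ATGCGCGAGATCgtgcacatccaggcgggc
Tubb2b: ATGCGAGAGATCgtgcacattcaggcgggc
Tubb4b: ATGAGGGAGATCgtgcacctgcaggctggg
Tubb5: ATGAGGGAAATCgtgcacatccaggccgga
Tubg1: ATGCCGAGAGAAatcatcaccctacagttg
The 4 alpha members share 2 versions of these 12 bases, and the 5 beta members have 5 different ones. These are differences between codons for the same residues in the starts shown. Both alpha versions encode MREC, and all beta starts shown encode MREI. Tubg1 starts with other bases than any alpha or beta member.

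Members are alike enough in sequence to limit what a count can tell. Tuba1a and Tuba1b differ at 23 of 1353 coding bases, and Tubb2a and Tubb2b at 47 of 1335. The last 60 coding bases, before the stop codon, of Tubb2a and Tubb2b, both on chromosome 13, show how few those differences are, with the 3 differing positions in capitals:
Tubb2a: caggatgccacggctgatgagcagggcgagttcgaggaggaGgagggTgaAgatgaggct
Tubb2b: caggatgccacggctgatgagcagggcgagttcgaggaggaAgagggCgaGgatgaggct
Windows of 50 bases that also occur in a transcript of another gene, on either strand, made up 83.1% of the Tuba1b transcript, 75.5% of Tuba1a, 61.0% of Tuba1c, 55.5% of Tubb4b, 49.6% of Tubb2a, 48.8% of Tuba4a and 39.3% of Tubb2b. For Tubb2a and Tubb2b most of these were in each other. For Tubb4b most were in Tubb4b-ps1, and for Tuba4a nearly all were in the overlapping gene Stk16. The share was 14.1% for Tubg1, of which nearly all lay in its neighbour Tubg2, 0.115% for Tubb5 and 0 for Tubb6. How reads with more than 1 place, or in overlapping genes, were counted is not given in the sources used here. Such reads may have been split between genes, given to other genes or left out. Levels of single members of the Tuba1 group, of the Tubb2 pair, of Tubb4b and of Tuba4a are uncertain by that amount.

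A gene was called higher or lower when its pooled level, the summed counts of a class over its summed totals, differed at least 2-fold, with at least 10 CPM in 1 class and a count in at least 50% of the libraries of the higher class. In 2-cell-like against oocyte-like libraries, 4 of the 10 members were called higher (Tubb2b, Tubg1, Tubb2a and Tuba4a) and 0 lower. Over all 9677 genes compared, 20.9% were called higher and 27.8% lower. Of the 4, the first 3 also differed at least 2-fold in the ratio of library medians (1 CPM added to each), which 15.3% of all genes did on the higher side. The median log2 ratio of the 10 members was 0.75, and that of all genes compared was -0.08. With edgeR's TMM scaling the median of all genes lay at -0.30 and with DESeq2 size factors at -0.21. Tubb2b, Tubg1 and Tubb2a were called higher under both, with ratios of 3.32 and 3.50, 2.32 and 2.45, and 2.18 and 2.30 in the order TMM, DESeq2.

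**Figure D1:**
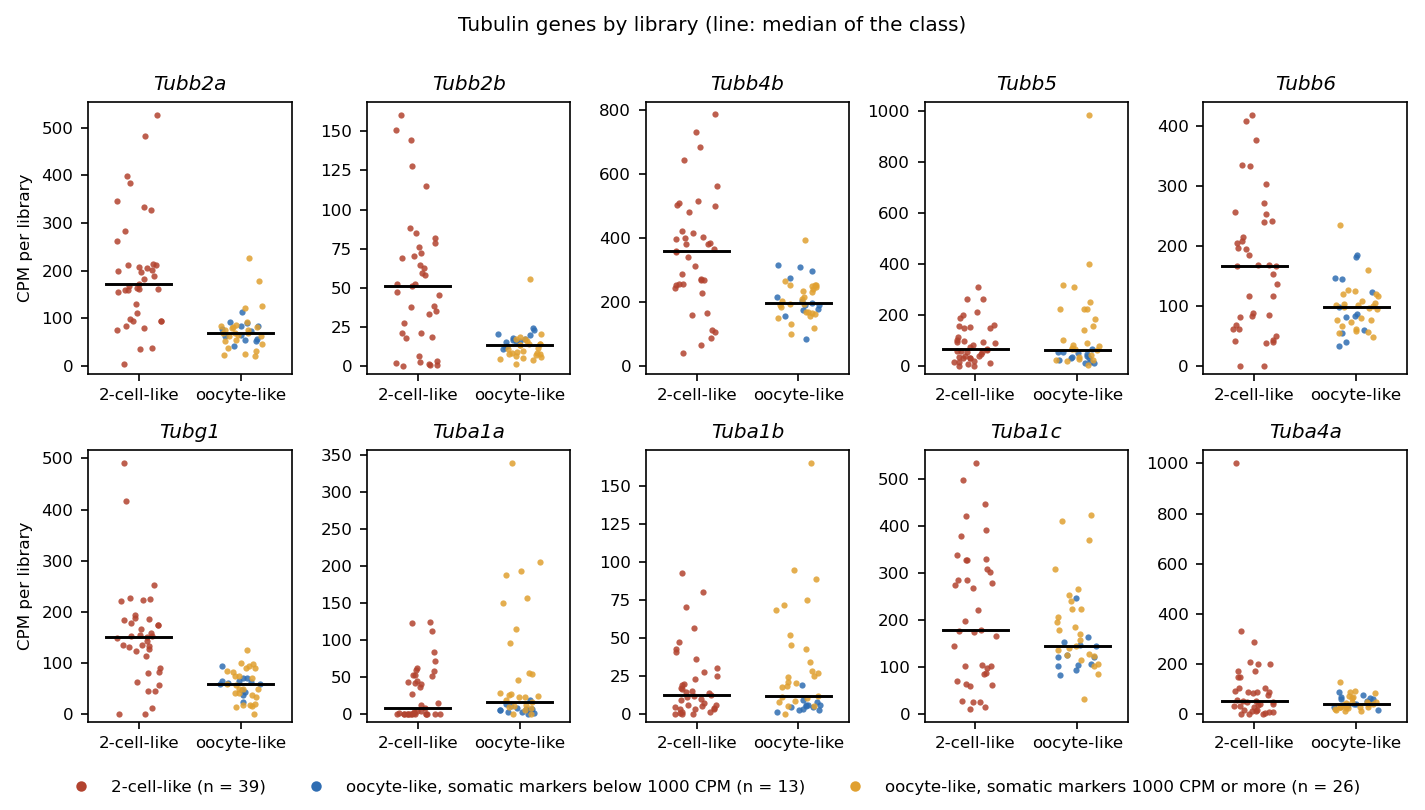
CPM of each tubulin gene in every library, 2-cell-like on the left (39 libraries) and oocyte-like on the right (39 libraries, of which 26 have somatic markers at 1000 CPM or more); lines are medians and each panel has its own linear axis. Tubb2a, Tubb2b and Tubg1 lie higher in 2-cell-like libraries with some overlap, while the highest oocyte-like values of Tuba1a, Tuba1b and Tubb5 are in libraries with many somatic markers.

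Among the beta-tubulins, Tubb2b had the largest ratio. It ranged from 0 to 160 CPM in 2-cell-like libraries (median 51.0) and from 1.35 to 55.9 CPM in oocyte-like ones (median 13.6). The classes overlapped, with 17 of 39 2-cell-like libraries above every oocyte-like one and 3 of 39 below every one. Pooled, it stood at 56.6 against 14.9 CPM, a ratio of 3.79 (3.58 to 4.02), and the medians gave 3.56. Against the 13 oocyte-like libraries with few somatic markers, where it ranged from 11.2 to 24.5 CPM, the ratio was 3.17. By label, its pooled 2-cell-like level was 71.9 CPM under mutant oocyte, 79.1 under negative control, 32.1 under mutant 2-cell and 32.2 under wild-type oocyte. Medians were 62.4, 91.6, 18.6 and 21.5 CPM in the same order. The class difference was thus larger under the first pair of labels than under the other pair.

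Tubb2a, the near-identical neighbour, ranged from 5.48 to 527 CPM in 2-cell-like libraries (median 171) and from 21.6 to 228 CPM in oocyte-like ones (median 70.4). Of the 39 2-cell-like libraries, 36 lay above the oocyte-like median and 9 above every oocyte-like value. Its pooled level was 184 against 74.0 CPM, a ratio of 2.49 (2.42 to 2.56), and the ratio was 2.48 against the 13 libraries with few somatic markers. Although the pair shares sequence, the levels of Tubb2a and Tubb2b did not go together from library to library. Spearman's rho was -0.36 over the 39 2-cell-like and 0.10 over the 39 oocyte-like libraries.

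Tubb4b, a beta-tubulin of many tissues, and Tubb6 were higher in most 2-cell-like libraries but under 2-fold. Tubb4b ranged from 42.2 to 786 CPM in 2-cell-like libraries (median 359) and from 83.5 to 394 CPM in oocyte-like ones (median 196), with a pooled ratio of 1.67 (1.64 to 1.70) that was 1.58 against the 13 libraries with few somatic markers. Tubb6 ranged from 0 to 419 CPM in 2-cell-like libraries (median 167) and from 33.7 to 236 CPM in oocyte-like ones (median 98.1), with a pooled ratio of 1.69 (1.64 to 1.73) that was 1.63 against those 13. For Tubb4b 32 of 39 and for Tubb6 25 of 39 2-cell-like libraries exceeded the oocyte-like median. In 2-cell-like libraries the Tubb4b median was 382 CPM under mutant oocyte, 359 under mutant 2-cell, 441 under negative control and 160 under wild-type oocyte. In the same order Tubb6 medians were 83.4, 240.2, 75.5 and 185 CPM. Oocyte-like libraries under wild-type labels had Tubb4b medians of 198 (2-cell) and 199.9 CPM (oocyte), so its median was not higher under that genotype label.

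Tubb5, the beta-tubulin of many dividing cells, had no single direction. It ranged from 0 to 309 CPM in 2-cell-like libraries (median 66.7) and from 6.72 to 985 CPM in oocyte-like ones (median 65.0). The pooled ratio was 0.70 (0.67 to 0.72), the ratio of medians was 1.03, and against the 13 oocyte-like libraries with few somatic markers it was 2.28 (2.16 to 2.41).

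Tubg1, the gamma-tubulin of the ring complex, separated the classes in more libraries than the other members did. It ranged from 0 to 491 CPM in 2-cell-like libraries (median 151) and from 0 to 125 CPM in oocyte-like ones (median 59.6). Of the 39 2-cell-like libraries, 27 lay above every oocyte-like one. The pooled level was 155.0 against 58.3 CPM, a ratio of 2.66 (2.58 to 2.74), and 2.61 against the 13 libraries with few somatic markers. Tubg2, the second gamma-tubulin gene and its neighbour on chromosome 11, was also called higher, at 440.3 against 134 CPM, a ratio of 3.28 (3.22 to 3.35), and 3.19 against those 13 libraries.

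The alpha-tubulins gave 1 call, and that call rested on 1 library. Tuba4a ranged from 0 to 1002 CPM in 2-cell-like libraries (median 54.8) and from 12.0 to 129 CPM in oocyte-like ones (median 43.1). The pooled ratio was 2.18 (2.11 to 2.26), but the medians differed by a ratio of 1.26, and TMM scaling gave 1.91. Library 41, labelled mutant oocyte, held the 1002 CPM, against 331 CPM in the next highest 2-cell-like library, and without it the pooled ratio was 1.65. That library had 4328 detected genes, the fewest of its class, from 1825876 counts, and also the highest Tubb2b of the class. Stk16, which overlaps Tuba4a, was at 27.9 CPM there and at 27.2 CPM or less in the other 2-cell-like libraries.

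Tuba1c had more counts than the other alpha members and differed little between the classes. It ranged from 11.0 to 534 CPM in 2-cell-like libraries (median 179) and from 32.3 to 423 CPM in oocyte-like ones (median 146). The pooled ratio was 1.13 (1.11 to 1.16), at 1.498 against the 13 libraries with few somatic markers and at 0.99 under TMM scaling.

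Tuba1a, best known from neurons, ranged from 0 to 125 CPM in 2-cell-like libraries (median 9.20) and from 0 to 339 CPM in oocyte-like ones (median 17.3). Tuba1b, an alpha-tubulin of most cell types, ranged from 0 to 93.1 CPM in 2-cell-like libraries (median 12.7) and from 0 to 165 CPM in oocyte-like ones (median 12.2). The classes overlapped for both, with pooled ratios of 0.53 (0.50 to 0.56) for Tuba1a and 0.77 (0.72 to 0.82) for Tuba1b. Tuba1a passed the 2-fold limit on the lower side under TMM scaling (0.47), under DESeq2 size factors (0.49), and when library 45, 81 or 88 was left out (0.491, 0.499 and 0.465). With only libraries below 10 or at or above 1000 CPM of Mos (33 2-cell-like and 34 oocyte-like), the direction turned for Tuba1a, Tuba1b and Tubb5, at ratios of 1.01, 1.15 and 1.13.

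The direction of Tuba1a, Tuba1b and Tubb5 depended on oocyte-like libraries that also hold somatic RNA. Library 61, labelled wild-type 2-cell, had 39838 CPM of somatic markers led by 23823 CPM of Spp1 and 4024.5 CPM of Hsd3b1, and the highest oocyte-like level of all 3 genes, at 339 CPM of Tuba1a, 165 CPM of Tuba1b and 985 CPM of Tubb5. In the 11 oocyte-like libraries with at least 5000 CPM of somatic markers Tuba1a ranged from 29.4 to 339 CPM (median 151), in the 15 with 1000 to below 5000 CPM from 0 to 54.3 CPM (median 17.3), and in the 13 below 1000 CPM from 0 to 19.0 CPM (median 6.42). Tubb5 had medians of 226, 65.0 and 36.4 CPM in the same 3 sets, and Tuba1b of 68.7, 12.2 and 5.33 CPM. All 3 genes were thus higher where somatic markers were higher. Over the 39 oocyte-like libraries Spearman's rho with the marker sum was 0.81 for Tuba1a, 0.82 for Tuba1b and 0.74 for Tubb5, and the genes went together with a rho of 0.87 for Tuba1a with Tuba1b, 0.84 for Tuba1a with Tubb5 and 0.84 for Tuba1b with Tubb5. Tuba1c went with the marker sum more loosely, at a rho of 0.49, and had medians of 195, 157 and 123 CPM in the same 3 sets. These values share the libraries and their depth, and the part of somatic RNA in each gene's level was not tested.

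**Figure D2:**
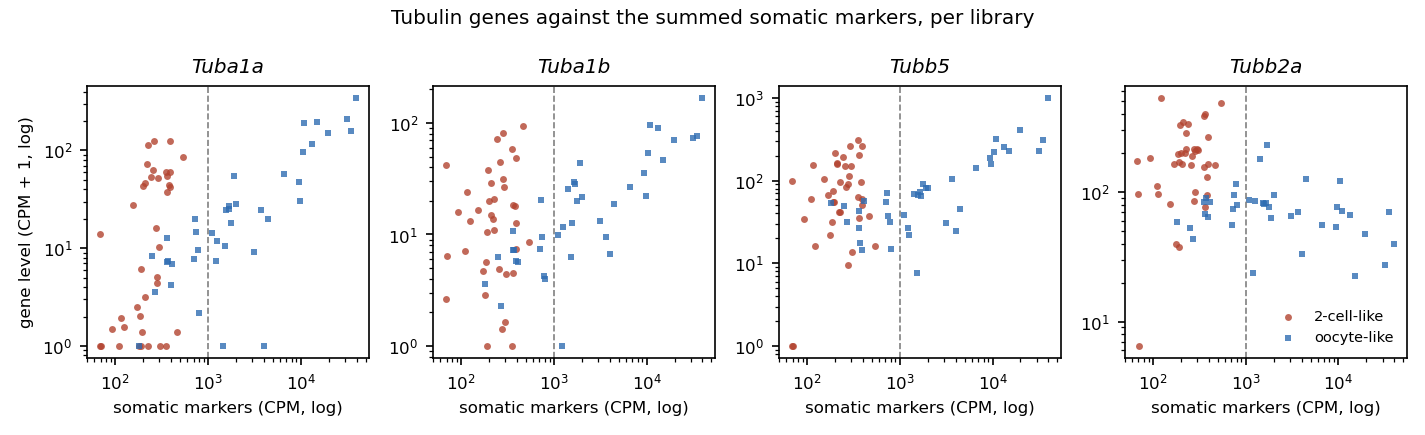
Level of 4 tubulin genes (CPM with 1 added, log axis) against the summed somatic markers (CPM, log axis) in each 2-cell-like and oocyte-like library; the dashed line is 1000 CPM. Tuba1a, Tuba1b and Tubb5 climb with the markers in oocyte-like libraries (rho 0.81, 0.82 and 0.74), and Tubb2a does not (rho -0.21).

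Against the 13 oocyte-like libraries with few somatic markers, the order of these genes turned round. Tuba1a stood at 25.9 CPM in 2-cell-like libraries against 7.37 CPM, a ratio of 3.51 (3.12 to 3.96), although the medians gave only 1.37. Tuba1b stood at 20.5 against 6.38 CPM, a ratio of 3.22 (2.83 to 3.67), and Tubb5 at 85.7 against 37.5 CPM. In this comparison 6 of 10 members were called higher (Tuba1a, Tuba1b, Tubb2a, Tubb2b, Tubb5 and Tubg1) and 0 lower, where 28.1% of 8961 genes were called higher and 21.9% lower. Tuba4a, at 1.92, was not called. Tuba4a, Tubb2a, Tubb2b, Tubb4b, Tubb6 and Tubg1 had rho between -0.44 and 0.04 with the somatic markers in oocyte-like libraries.

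**Figure D3:**
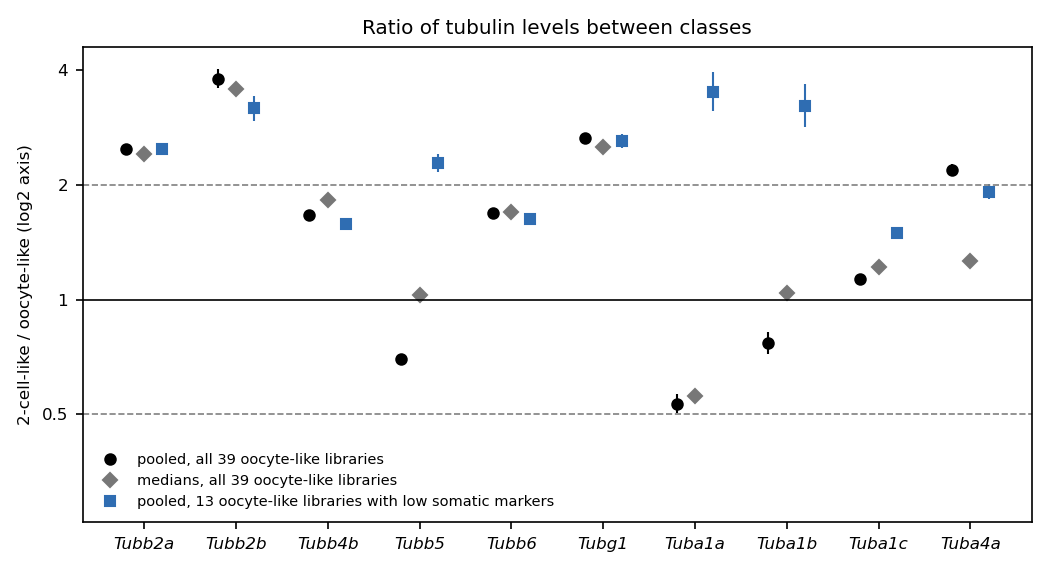
Ratio of 2-cell-like to oocyte-like level for each tubulin gene (log2 axis), pooled over all 39 oocyte-like libraries (circles), as library medians (diamonds) and pooled over the 13 oocyte-like libraries with few somatic markers (squares); bars are counting intervals and dashed lines mark 2-fold. Tubb2a, Tubb2b and Tubg1 stay above 2 in all 3 forms, the pooled ratios of Tuba1a, Tuba1b and Tubb5 cross from below 1 to above 2, and Tuba4a is above 2 only in the pooled ratio over all libraries.

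Summed over the 10 members, tubulin counts were 1354 CPM in 2-cell-like libraries against 880.2 CPM in oocyte-like ones, a pooled ratio of 1.54 (1.52 to 1.55). Library sums ranged from 454 to 2680 CPM in the 2-cell-like class (median 1446) and from 375 to 2417 CPM in the oocyte-like class (median 778), and 36 of 39 2-cell-like libraries exceeded the oocyte-like median. The highest oocyte-like sum was that of library 61. The 5 beta genes together had a ratio of 1.62 (1.60 to 1.64) and the 4 alpha genes of 1.17 (1.15 to 1.19), which became 1.85 and 1.74 against the libraries with few somatic markers.

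Levels of different genes are compared per kilobase of transcript, using the length of 1 principal coding transcript per gene. Tubb4b led in both classes, with a median of 225 CPM per kilobase in 2-cell-like and 123 in oocyte-like libraries. In 2-cell-like libraries it was followed by Tubb2a at 106, Tubb6 at 95.2, Tuba1c at 90.1, Tubg1 at 83.9, Tubb5 at 25.2, Tubb2b at 23.4, Tuba4a at 19.3, Tuba1b at 7.28 and Tuba1a at 5.10. In oocyte-like libraries the order was Tubb4b, Tuba1c at 73.7, Tubb6 at 55.8, Tubb2a at 43.7, Tubg1 at 33.1, Tubb5 at 24.5, Tuba4a at 15.2, Tuba1a at 9.58, Tuba1b at 6.98 and Tubb2b at 6.24. Between neighbours in these orders the middle 50% of libraries overlapped, except for Tubb4b and Tubb2a in 2-cell-like libraries. Lengths were not corrected for sequence shared with other genes. It made up 83.1% of Tuba1b windows, 75.5% of Tuba1a, 61.0% of Tuba1c and 55.5% of Tubb4b, but 0.115% of Tubb5 and 0 of Tubb6. The part of shared sequence in these orders and in the family shares that follow was not tested.

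**Figure D4:**
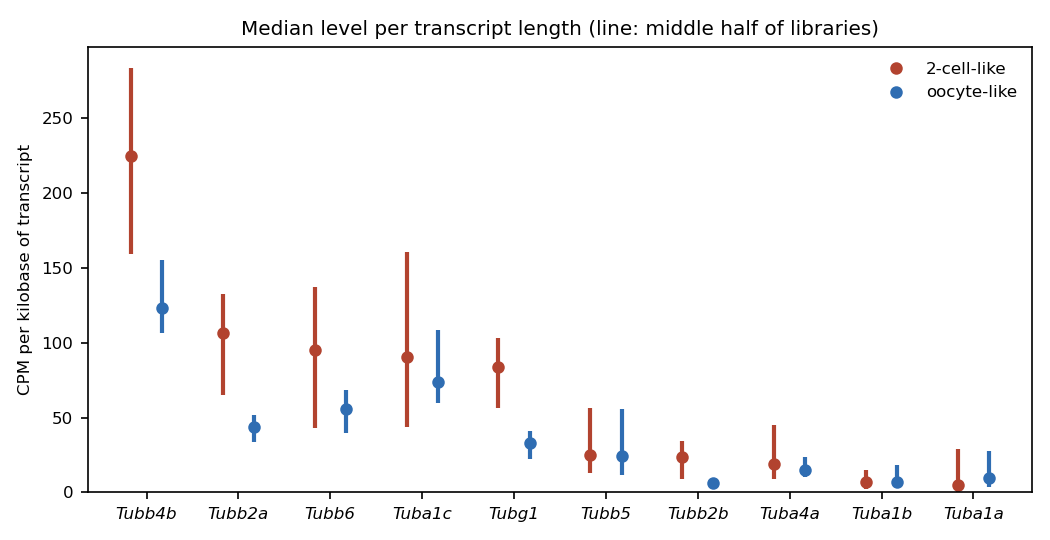
Median CPM per kilobase of transcript of each tubulin gene in 2-cell-like and oocyte-like libraries (39 each), with lines for the middle 50% of libraries. Tubb4b is highest in both, at 225 and 123, and Tuba1c leads the alpha genes in both.

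Within their family, the leading genes had similar median shares in both classes, with wide ranges over libraries. Tubb4b made up a median of 46.5% (8.02 to 70.5%) of beta-tubulin per length in 2-cell-like and 48.6% (20.2 to 64.9%) in oocyte-like libraries. Tuba1c made up 66.5% (31.8 to 93.6%) of alpha-tubulin in 2-cell-like and 68.0% (28.1 to 94.5%) in oocyte-like libraries. Tubb2b held 4.56% of beta-tubulin in 2-cell-like and 2.40% in oocyte-like libraries, and the ranges over libraries overlapped for all 3 genes.

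The genotype labels were compared within each class of RNA content. In 2-cell-like libraries, 30 carry a mutant and 7 the wild-type label, and 1 of 10 members (Tuba1b) was called lower and 0 higher in mutant-labelled ones, where 6.32% of 8549 genes were called lower and 18.6% higher. Tuba1b had 0 to 93.1 CPM in mutant-labelled libraries (median 12.2) and 3.51 to 80.4 CPM in wild-type-labelled ones (median 36.7). The pooled ratio was 0.48 (0.43 to 0.54), and it was 0.505, 0.51, 0.53, 0.52 and 0.60 without library 40, 43, 2, 6 or 7, which ended the call each time. For the other 9 members the ratio lay between 0.52 (Tubb2a) and 1.89 (Tubb2b). The ratio of medians turned the direction of Tuba1a, at 0.32 against a pooled 1.15, and passed 2-fold for Tubb2a (0.496), Tubb2b (2.37) and Tubb4b (2.30). Single libraries moved these too. Without library 8 Tubb2b reached 3.00, Tuba4a 2.06 and Tubb2a 0.44, without library 6 Tuba4a and Tubb4b both reached 2.46, without library 2 Tubb2b reached 2.16 and Tubb4b 2.02, and without library 7 Tubb2a reached 0.499. The direction turned for Tuba1a (0.91 without library 4), Tubb5 (1.07 without 6), Tubg1 (1.04 without 8) and Tubb6 (1.03 without 2).

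The mutant label in this class joins libraries with different stage labels, which did not have the same tubulin levels. Tuba1a had a median of 59.6 CPM (0 to 125) in the 11 labelled mutant 2-cell, 3.36 CPM (0 to 71.8) in the 19 labelled mutant oocyte and 36.4 CPM (0.398 to 59.0) in the 7 labelled wild-type oocyte. Tuba1c had medians of 286, 102 and 285 CPM and Tubb6 of 240.2, 83.4 and 185 CPM in the same order. Tubb2b went the other way, with medians of 18.6 CPM (0.775 to 115), 62.4 CPM (18.1 to 160) and 21.5 CPM (0 to 81.7). The libraries labelled mutant oocyte thus stood apart from both other sets in these 4 genes, while the ranges overlapped. Their Zfp352 median was 75.8 CPM, against 360.2 CPM under mutant 2-cell and 244 CPM under wild-type oocyte, and its part in these differences was not tested.

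**Figure D5:**
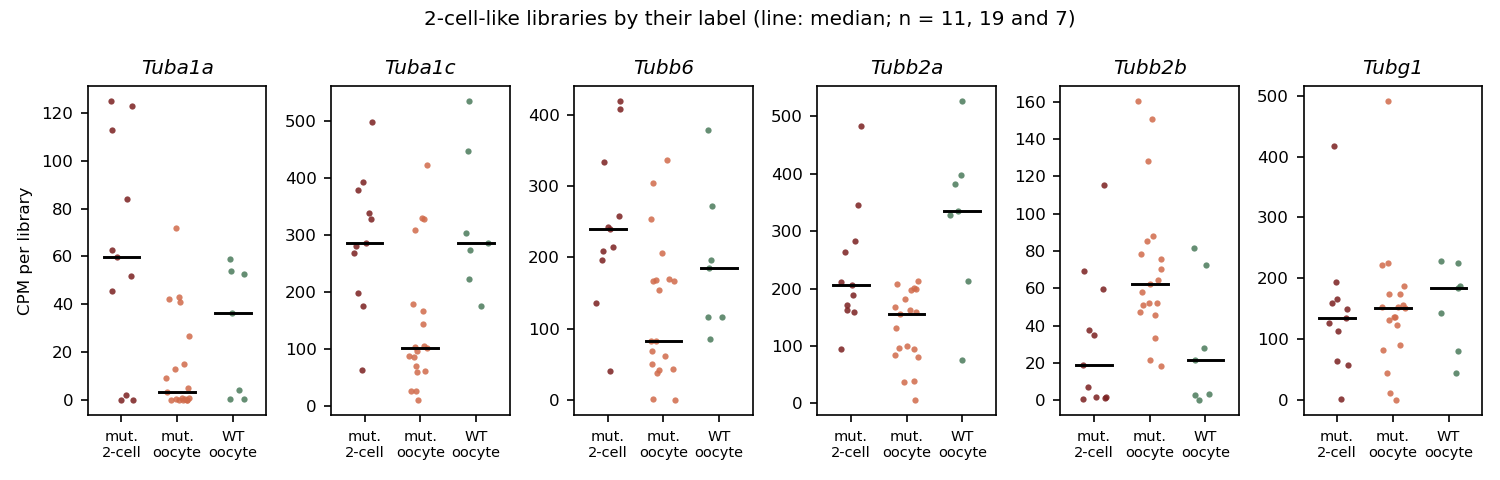
CPM per library of 6 tubulin genes in 2-cell-like libraries, by label: mutant 2-cell (11), mutant oocyte (19) and wild-type oocyte (7); lines are medians. Tuba1c medians are 286, 102 and 285 CPM and Tubb2b medians 18.6, 62.4 and 21.5 CPM, with overlap in both, and Tubg1 medians lie between 134 and 184 CPM.

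Holding the stage label fixed, the 19 2-cell-like libraries labelled mutant oocyte were set against the 7 labelled wild-type oocyte, a comparison chosen after the values were seen. Of the 10 members 3 were called lower (Tuba1b, Tuba1c and Tubb2a) and 1 higher (Tubb2b), where 10.3% of 8485 genes were called lower and 19.1% higher. Tubb2a ranged from 5.48 to 213 CPM in mutant-labelled libraries (median 156) and from 75.1 to 527 CPM in wild-type-labelled ones (median 334), and 5 of the 7 lay above every mutant-labelled library. Its pooled ratio was 0.44 (0.42 to 0.46). Tuba1c had a ratio of 0.47 (0.45 to 0.49) and Tuba1b of 0.42 (0.37 to 0.48), and Tubb2b of 2.24 (2.01 to 2.497). Tubg1, at 147 against 159 CPM, had a ratio of 0.93 (0.88 to 0.98). The animals and days behind the labels are not named, so genotype and collection cannot be told apart.

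In oocyte-like libraries, 9 carry a mutant and 26 the wild-type label. Tuba1a, Tuba1b and Tubb5 were called lower in mutant-labelled libraries and 0 of 10 members higher, where 15.8% of 9093 genes were called lower and 0.429% higher. Tuba1a ranged from 0 to 157 CPM in mutant-labelled libraries (median 6.46) and from 1.19 to 339 CPM in wild-type-labelled ones (median 23.7), with a pooled ratio of 0.23 (0.21 to 0.26) that became 0.10 without library 87. Tuba1b had medians of 4.69 and 19.2 CPM and a ratio of 0.33 (0.29 to 0.37). Tubb5 had medians of 30.8 CPM in mutant-labelled and 74.7 CPM in wild-type-labelled libraries and a ratio of 0.34 (0.33 to 0.36), which was 0.51 and no longer called without library 61.

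These 3 genes had the highest rho with the somatic markers among the 10 members. The markers had a median of 1215 CPM in the 9 libraries labelled mutant 2-cell, 4331 CPM in the 14 labelled wild-type 2-cell and 1178 CPM in the 12 labelled wild-type oocyte. With only libraries below 1000 CPM of markers, 4 mutant-labelled and 7 wild-type-labelled, 0 members were called, with Tuba1a at 0.47, Tuba1b at 0.32 and Tubb5 at 1.04, where Tuba1a and Tuba1b no longer passed the filter. The other 7 members had ratios from 0.74 (Tuba1c) to 1.03 (Tubg1) over all 35 libraries. Leaving 1 library out turned the direction of Tuba4a (1.04 without 91), Tubb2b (1.13 without 53), Tubb4b (1.01 without 85) and Tubg1 (0.94 without 84). Within the 2-cell label alone, 9 mutant-labelled against 14 wild-type-labelled, the same 3 genes were called lower, with Tuba1a at 0.16, Tuba1b at 0.21 and Tubb5 at 0.23, where 23.4% of 9573 genes were called lower and 1.48% higher.

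The other genes of the tubulin system moved both ways between 2-cell-like and oocyte-like libraries, read against the 20.9% higher and 27.8% lower over all genes. Of 10 other tubulin genes 6 passed the filter, with 2 called higher (Tuba3b at 3.71 and Tubg2) and 2 lower (Tuba3a at 0.37 and Tube1, an epsilon-tubulin, at 0.42). Tuba3a and Tuba3b share sequence in about the way the Tubb2 pair does, with 32.4% of the Tuba3a windows found in Tuba3b. Tubb3, a beta-tubulin known from neurons, stood at 315 against 425 CPM and was not called.

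Of 20 genes that fold tubulin or assemble its dimer, all 20 passed the filter, with 2 called higher and 6 lower. Pfdn4, a prefoldin subunit, stood at 142 against 588 CPM, a ratio of 0.24, Cct5, a chaperonin subunit, at 0.33, and Arl2, a small GTPase of the assembly cofactors, at 0.35. Tbcc, a cofactor, had a ratio of 2.48 and Pfdn5 of 2.37. Subunits of 1 complex thus differed in direction. Against the 13 libraries with few somatic markers the counts were 5 higher and 3 lower of 20, where 28.1% of all genes were higher and 21.9% lower. Cct5, at 0.60, was no longer called there, while Pfdn5 reached 4.62.

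Of 16 partners of gamma-tubulin 13 passed, with 3 called higher and 2 lower. The augmin subunits Haus2 and Haus1 had ratios of 5.90 and 3.93, at 20.2 and 22.0 CPM in 2-cell-like libraries, and Haus3, a subunit of the same complex, had a ratio of 0.23 at 24.8 against 110.2 CPM. Against the 13 libraries with few somatic markers Haus2 reached 25.4, and the direction of all 3 was the same. Of 16 listed enzymes that modify tubulin 15 were in the table and 8 passed, with 2 higher and 1 lower. Ttl, which adds tyrosine to alpha-tubulin, had a ratio of 4.12, Atat1, which acetylates it, of 2.25, and Svbp, the partner of the detyrosinating enzymes, of 0.18. Against those 13 libraries Svbp did not pass the filter and its ratio turned to 1.08.

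All 13 genes of tubulin RNA decay and the deadenylase complex passed, with 0 called higher and 1 lower. That gene was Ttc5, whose protein recognises the first residues of alpha- and beta-tubulin. It had a count in 9 of 39 2-cell-like and 37 of 39 oocyte-like libraries and stood at 1.42 against 18.5 CPM, a ratio of 0.08 (0.06 to 0.09). Against the 13 oocyte-like libraries with few somatic markers it stood at 1.42 against 7.35 CPM, below the 10 CPM limit in both.

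Genes whose level went most closely with each called member over the 78 libraries differed from member to member. For Tubb2a they were Csnk2b, Tubg2 and Tcstv3 (Spearman's rho 0.77, 0.76 and 0.73), for Tubb2b Epc1, Rab3il1 and Gm47432 (0.77, 0.66 and 0.63), for Tubg1 Itpk1, Rbpms2 and Tmem216 (0.73, 0.73 and 0.72), and for Tuba4a Sp110, Gm29253 and Gpr3 (0.55, 0.50 and 0.47). For Tuba1a they were Gm49450, Ldha and Rpl23 (0.77, 0.73 and 0.73), for Tuba1b Gm49450 and Gm45552 (0.85 and 0.75), and for Tubb5 Rps10 and Gm49804 (0.74 and 0.72). Within the 39 oocyte-like libraries Tuba1a went with Bok and Gpx4 (0.94 and 0.93), Tuba1b with Gm49450, Tagln2 and Rps2 (0.95, 0.94 and 0.92) and Tubb5 with Itm2b, Rrp1 and Gm21988 (0.90, 0.90 and 0.89). The libraries share stage, depth and somatic RNA, which enter all of these values.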

How the data were processed

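The authors deposited 1 table of raw counts per gene for 96 libraries, in whole numbers with no normalization. Reads were trimmed with Trim Galore 0.4.4 and aligned with HISAT2 2.1.0 to GRCm39, per the submitters' processing notes. The counter, its use of strand and its treatment of reads with several places are not given in the sources used here. The 36983 entries became 36935 symbols after 48 repeats were summed, and 0 columns lacked a sample. Levels are CPM, ratios compare summed counts over summed totals, with exact conditional binomial 95% intervals, in Python 3.11.15 with pandas 2.3.3 and SciPy 1.17.1. TMM factors came from edgeR 4.0.16 and size factors from DESeq2 1.42.0, and both served only as alternative scalings. No doublet search was made. The members, gene lists, classes and limits were chosen with earlier results of these data known. All members are described. Of the other lists up to 3 called genes with the largest ratio either way are named, and libraries are named where leaving 1 out ended a call, turned a direction or moved a ratio by over 1.5 times. For a turned direction only the library that gave the furthest ratio is named. The effect of 11 other settings is given in the closing part. The comparisons within 1 stage label were added after the values were seen. Up to 3 genes most alike in level are named for each called member, and some of these are not reported here. Sequences and lengths come from GENCODE M21 (GRCm38), an earlier build than that of the counts, so no coordinates are given.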

Additional observations from a re-analysis of the deposited data

Results flagged for a closer look

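Library 87, labelled mutant 2-cell and with 35068 CPM of somatic markers, stood far from the other 8 oocyte-like libraries with a mutant label in 3 genes. It had 157 CPM of Tuba1a against 24.1 CPM in the next highest, 75.0 CPM of Tuba1b against 28.5 CPM, and 312 CPM of Tubb5 against 71.3 CPM. Its part in the ratios between genotype labels was given above for Tuba1a. In all, 20 sets of 4 to 10 libraries were looked at this way. With normally distributed values chance sets 1 in about 20 apart, and CPM was not checked for that shape. The 3 genes went together over oocyte-like libraries (rho 0.84 to 0.87), so they do not count as 3 separate cases.

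Library 86, labelled mutant 2-cell, entered no comparison because it had neither Mos nor Zfp352. Its oocyte markers summed to 3.79 CPM and its somatic markers to 32743 CPM. It had 387 CPM of Tuba1a, 321 CPM of Tuba1b, 654 CPM of Tubb5 and 268 CPM of Tubb6. The highest values in the 6 negative-control libraries that passed the filter were 206, 72.0, 226 and 160.0 CPM for these genes, and those libraries hold cell RNA themselves. Other libraries with many somatic markers had more of some of these genes. Library 61 had 985 CPM of Tubb5, and libraries 13 and 58, which did not pass the filter, 1537 and 551 CPM of Tuba1a. Tubb6 was lower in each, at 127, 66.4 and 53.9 CPM. Tubg1 had no count in library 86.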

How the results depend on the processing

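Between the classes, the count of members called higher stayed within 1.5 times of 4 under every alternative, and it was 6 without the libraries with many somatic markers; the count called lower became 1 (Tuba1a) under TMM and DESeq2 scaling and ranged from 0 to 1 when libraries were left out singly. The ratio of the summed 10 members ranged from 1.34 (TMM) to 1.89 (few somatic markers). In 2-cell-like libraries the genotype labels gave 2 members higher (Tubb2b and Tubb4b) and 3 lower (Tuba1a, Tuba1b and Tubb2a) with medians, 2 lower with TMM, 2 lower with DESeq2 scaling, 1 higher and 0 lower with the stricter Mos limits (below 10 or at least 1000 CPM), and 1 higher and 3 lower within the oocyte label. Leaving out single libraries gave 0 to 2 higher and 0 to 2 lower. Shares over all genes are not given for the scalings, the stricter Mos limits or left-out libraries, nor for medians between genotype labels. Counts of members under these settings therefore have no background to be read against. In oocyte-like libraries the 3 lower calls became 0 without the libraries with many somatic markers, where Tubb5 turned to 1.04, and Tubb5 was at 0.51, not called, after thinning to 100000 counts. The cause of these shifts was not tested. Leaving out the libraries labelled negative control changed no call between the classes. No paired analysis was possible, because the labels carry only a running library number and link no libraries to a shared animal or embryo. Whether sister blastomeres of 1 embryo are among the libraries is not given. Depth limits Tuba1a, Tuba1b and Tubb2b most. Thinned to 100000 counts, Tuba1a had a count in 22 of 39 2-cell-like and 27 of 39 oocyte-like libraries. In the same order Tuba1b had a count in 27 and 27, and Tubb2b in 31 and 28.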
